A study of Homo sapiens with 9 samples.

Results

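HMGA2 and PLAGL2 are oncofetal genes, that is, genes active in the embryo, largely silent in most adult tissues and switched on again in many tumours. They were followed across 9 whole-transcript arrays of BT-549, an established human triple-negative breast cancer cell line, and are 2 of the 14884 genes with a symbol on the array. Each was read by 1 feature (16753641 for HMGA2 and 16918296 for PLAGL2), so the choice of the brightest feature of a gene decided nothing here. Both were selected on these same log2 signals, since a rise on the mimic arrays against mock and negative control had already been seen for them. Their own differences between groups are therefore given as a description, without a test.

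The mock group received the lipid reagent RNAiMAX alone. The negative control group received a non-specific small RNA and the mimic group a mature miR-150-5p mimic, each at 50 nM with the same reagent. Medium was changed at 24 h and RNA was taken at 72 h, with 3 samples in each group. All cells were grown in RPMI-1640 with serum. Whether the 3 samples of a group came from separate cultures is not stated in the labels. Every p-value therefore sets a group difference only against how far these samples vary, and that variation may be technical. Values are log2 signals made with RMA, and differences are log2 differences of group means ± SE from limma, n = 3 arrays per group.

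The arrays had near-equal medians, from 2.43 to 2.48 on the log2 scale. Of the mesenchymal markers listed for BT-549, 4 of 6 were measured (VIM, CD44, AXL and FN1), and their summed log2 signal lay between 33.6 and 34.0 for mock, between 31.8 and 33.2 for negative control and between 32.5 and 33.3 for mimic. The estrogen receptor gene ESR1, the progesterone receptor gene PGR and the epithelial marker EPCAM lay below the median of all genes (3.34). The luminal marker GATA3 lay above that median, at a mean of 5.69 over the 9 arrays. With GATA3, the 4 measured of 6 luminal markers summed to 11.5 to 11.9, 11.5 to 12.0 and 10.6 to 11.3 on mock, negative control and mimic arrays. The mesenchymal sum was thus higher on mock than on all other arrays, and the luminal sum lower on mimic than on all other arrays. None of these 8 markers passed a test in any comparison (limma, adjusted p from 0.064 upward), and the part of either sum in the results was not tested. In RNA from a whole culture, fewer cells expressing a gene and less of its RNA per cell cannot be told apart. Of 5 blood and endothelial markers 1 was measured, PECAM1, at 2.01 to 2.80 over all arrays.

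A microRNA guides an Argonaute protein to messenger RNAs that pair with its seed, the stretch near its 5′ end, and so lowers their stability and translation. HMGA2, a small chromatin protein that bends AT-rich DNA through AT-hook motifs, is the textbook target of the let-7 family, which pairs with several sites in its 3′ untranslated region. PLAGL2, a zinc finger transcription factor of the PLAG family, has been placed among let-7 targets as well. HMGA2 has also been reported as a target of miR-150. The comparison of the groups asks whether either transcript was higher after a mimic of a microRNA other than let-7.

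The let-7 microRNAs are shown because their shared seed defines the group of targets described further on. All 9 distinct 5p arms of let-7 and miR-98 in the RefSeq table (GRCh38.p14) share the seed GAGGUAG, bases 2 to 8 from the 5′ end, given here in capitals:
hsa-let-7a-5p: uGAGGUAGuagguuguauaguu
hsa-let-7e-5p: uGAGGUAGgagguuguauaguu
hsa-let-7i-5p: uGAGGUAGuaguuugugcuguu
hsa-miR-98-5p: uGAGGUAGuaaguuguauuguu
The 4 differ from one another only outside the seed.

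HMGA2 was highest in the mimic group. In array order 1 to 3, mock read 5.49, 5.37 and 5.42, negative control 5.82, 5.40 and 5.78, and mimic 6.45, 7.0 and 6.58. All 3 mimic arrays lay above all 6 control arrays, whereas the mock and negative control arrays overlapped, with negative control 2 within the mock range. Group means were 5.43 ± 0.060 (SD, n = 3) for mock, 5.67 ± 0.23 for negative control and 6.68 ± 0.29 for mimic. The mimic mean was higher by 1.01 ± 0.15 (SE) than the negative control, which is 2.02-fold, and by 1.25 ± 0.15 than mock, 2.37-fold. The lowest mimic array stood 0.63 above the highest negative control array and 0.96 above the highest mock array.

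PLAGL2 was also highest in the mimic group. In the same order, mock read 4.66, 4.70 and 5.50, negative control 5.55, 5.26 and 5.52, and mimic 6.01, 6.34 and 5.94. Again the 3 mimic arrays lay above all 6 control arrays. Mock 3 stood well above the other two mock arrays and within the range of the negative control, so mock and negative control overlapped. Group means were 4.96 ± 0.47 (SD, n = 3), 5.45 ± 0.16 and 6.10 ± 0.22 for mock, negative control and mimic. The mimic mean was higher by 0.65 ± 0.21 (SE) than the negative control, 1.57-fold, and by 1.14 ± 0.21 than mock, 2.21-fold. The lowest mimic array stood 0.38 above the highest negative control array and 0.43 above the highest mock array, mock 3.

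**Figure D1:**
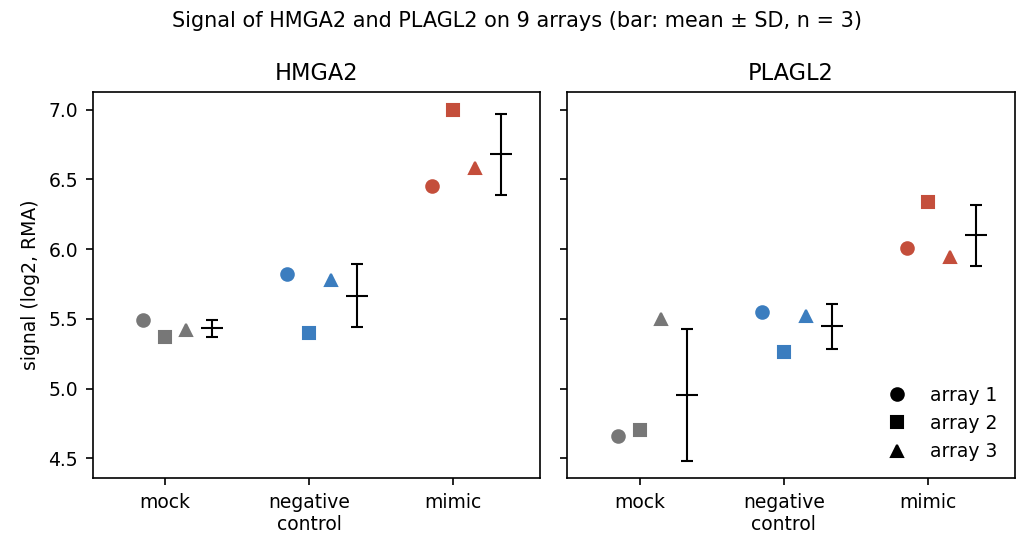
Log2 signal of HMGA2 (left) and PLAGL2 (right) on each of the 9 arrays, by group, with the marker shape giving the array number and the black bar the mean ± SD of 3 arrays. The mimic arrays lie above all control arrays in both panels, and for PLAGL2 mock 3 (5.50) lies apart from mock 1 and 2 (4.66 and 4.70).

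The order of the group means was mock, negative control, mimic for both genes, and the ranges of mock and negative control overlapped in both. Same-numbered arrays of these 2 groups may be paired, which the values cannot settle. Within the numbers 1 to 3 the negative control lay above mock each time, by 0.33, 0.029 and 0.35 for HMGA2 and by 0.89, 0.56 and 0.021 for PLAGL2. HMGA2 was 0.24 ± 0.15 (SE) higher in the negative control than in mock, or 0.16 to 0.37 when 1 array was left out, the extremes being without negative control 1 and 2. PLAGL2 was 0.49 ± 0.21 higher, a value that was 0.76 without mock 3. The difference between mimic and negative control ranged from 0.85 (without mimic 2) to 1.12 (without mimic 1) for HMGA2. For PLAGL2 it ranged from 0.53 (without mimic 2) to 0.73 (without mimic 3). Mimic 2 was the highest mimic array and negative control 2 the lowest negative control array for both genes.

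These differences can be placed among all genes, as a description of the choice and not as support. Ordered from the highest difference against mock, HMGA2 had rank 5 of the 14884 genes and PLAGL2 rank 9. Against the negative control the ranks were 31 and 187, and in the negative control against mock they were 1347 and 187. The 3 comparisons share arrays, so the ranks are not independent. All 3 mimic arrays lay above all 3 negative control arrays in 10.3% of genes, above all 3 mock arrays in 11.7% and above all 6 control arrays in 5.76%. The negative control arrays lay above all mock arrays in 6.21%. The SD within groups, pooled over the 9 arrays, was 0.22 for HMGA2 and 0.31 for PLAGL2. Among genes of similar mean signal (within 0.5 of their own) 73.2% had a smaller one than HMGA2 and 93.9% a smaller one than PLAGL2.

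The genes whose signal followed each of the pair most closely were ranked by Pearson's r over the 9 arrays, among 7022 other named genes at or above the median signal. Since the arrays form 3 groups, r mostly reflects group means and is given without a p. For HMGA2 the first 5 were FOXM1, a transcription factor of mitotic entry (r = 0.967), ADAMTSL1, a secreted matrix protein (0.961), IL4I1, an amino acid oxidase (0.960), ESPL1, the separase that splits sister chromatids (0.957), and RBCK1, a ubiquitin ligase subunit (0.957). They shared the shape of HMGA2 but not its size. FOXM1 was 0.21 ± 0.069 higher in the mimic than in the negative control and ESPL1 0.82 ± 0.16, against 1.54 ± 0.13 for ADAMTSL1.

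For PLAGL2 the first 5 were different genes, namely CHD7, a chromatin remodeller (r = 0.977), MED10, a Mediator subunit (0.970), TMEM9 (0.960), TMEM170A (0.959) and GPR52, an orphan receptor (0.958). In each of them mock 3 stood above mock 1 and 2, as in PLAGL2 itself. Choosing genes by r over the same arrays favours such a match, so it is no separate observation. CHD7, for example, read 6.04, 5.94 and 6.34 on mock 1 to 3 and 6.65, 6.66 and 6.55 on mimic 1 to 3. PLAGL2 ranked 100 among the genes most like HMGA2, and HMGA2 ranked 171 among those most like PLAGL2 (r = 0.871). The pair thus agreed on the mimic arrays and differed on mock 3.

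**Figure D2:**
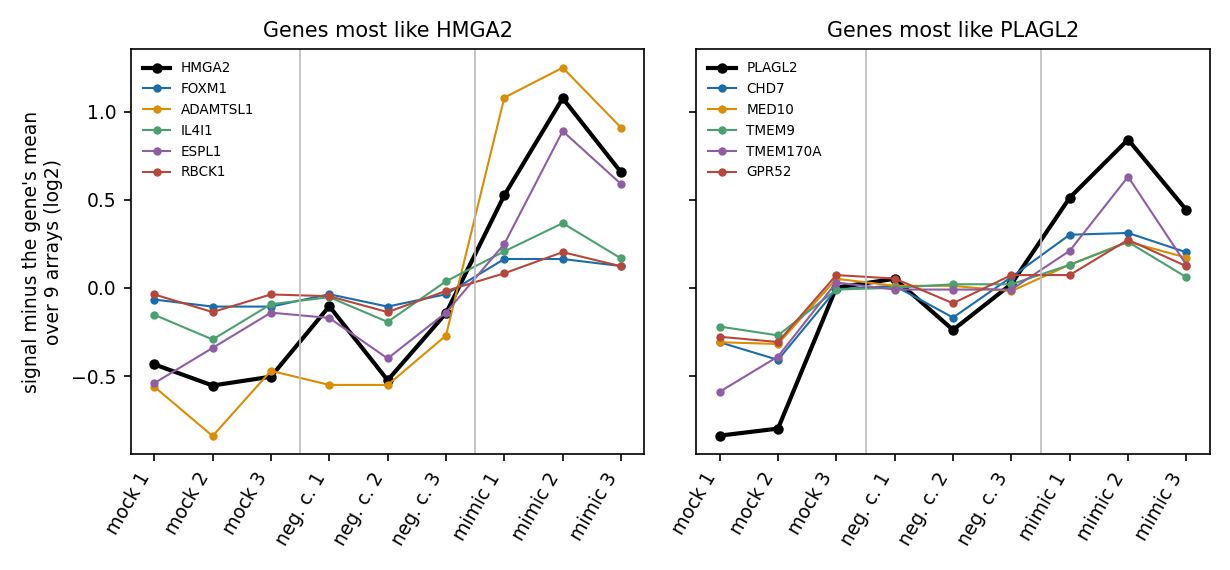
Log2 signal minus the gene's own mean over the 9 arrays, for HMGA2 and its 5 most similar genes (left) and PLAGL2 and its 5 (right). Lines join the arrays only to guide the eye, since arrays of a group have no order. The HMGA2 set is high on the mimic arrays, while in the PLAGL2 set mock 1 and 2 lie below mock 3. Both sets were chosen by r over these same arrays, which favours shared shapes.

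None of the close paralogs of the pair (HMGA1, PLAG1 and PLAGL1) passed in any comparison. In tests over all genes with limma and Benjamini-Hochberg adjustment at 0.05, 3.18% of the 14884 genes were called in mimic against negative control (1.76% higher and 1.42% lower). The share was 3.9% in mimic against mock (2.28% higher and 1.62% lower) and 0.645% in negative control against mock (0.168% higher and 0.477% lower). The balance of directions depended on the scaling. Higher genes made up 55.4%, 58.4% and 26.0% of the calls in these comparisons, and 37.8%, 44.6% and 41.2% when the values were quantile-normalized once more. HMGA1, the other AT-hook protein of its family, was at -0.17 ± 0.12 (adjusted p = 0.57) against the negative control and at 0.033 ± 0.12 (adjusted p = 0.94) against mock. HMGA1 signals were 7.83 to 7.89 in mock, 7.87 to 8.30 in negative control and 7.71 to 8.07 in mimic, so the mimic range overlapped both.

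Of 9 other high mobility group genes measured, 1 rose (all genes: 1.76%), 0 fell (all genes: 1.42%) and 8 did not pass against the negative control. The median of the 9 was 0.15 against -0.0044 over all genes. The one that rose was HMGN2, a nucleosome-binding protein, at 0.54 ± 0.11 (adjusted p = 0.037, up to 0.12 and lost without mock 1, negative control 2 or 3, or any mimic array). HMGN2 was at 0.064 ± 0.11 against mock (adjusted p = 0.85). Quantile-normalized once more, HMGN2 missed against the negative control (adjusted p = 0.060). Against mock 1 of the 9 rose (all genes: 2.28%), 0 fell (all genes: 1.62%) and 8 did not pass, with a median of 0.033. That one was HMGB1, a DNA-bending chromatin protein that also acts as an alarm signal outside cells, at 0.64 ± 0.15 (adjusted p = 0.046, up to 0.16 and lost when any array was left out except mock 3 and negative control 1). HMGB1 was at 0.60 ± 0.15 against the negative control (adjusted p = 0.064). It passed there without mock 3 (adjusted p = 0.028), with array weights (0.048) and with genes under the 25 or 50 percentile of signal left out (0.049 and 0.035). HMGN3 was at -0.47 ± 0.20 and HMGB2 at 0.43 ± 0.19 against the negative control, and neither passed.

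PLAG1, the founding oncogene of the family and itself a let-7 target, was at 0.14 ± 0.14 against the negative control (adjusted p = 0.68) and at -0.22 ± 0.14 against mock (adjusted p = 0.48). PLAGL1, an imprinted growth suppressor, was at 0.25 ± 0.20 (adjusted p = 0.62) and -0.20 ± 0.20 (adjusted p = 0.69). PLAG1 read 3.13 on every mimic array, below the 3.26 to 3.41 of mock and within the 2.68 to 3.31 of the negative control.

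Other reported let-7 targets included some that rose and 1 that fell. Of 30 listed, 19 were measured, 6 of them below the median signal of all genes. Against the negative control 13 of the 19 lay above 0 and 6 below it, with the same tally against mock. Over all genes 48.7% and 50.2% lay above 0 in these comparisons, which share the mimic arrays. Against the negative control 2 rose (all genes: 1.76%), 1 fell (all genes: 1.42%) and 16 did not pass, with a median of 0.048. Against mock 4 rose (all genes: 2.28%), 1 fell (all genes: 1.62%) and 14 did not pass. The median of the 19 against mock was 0.084, against 0.00034 over all genes. CDK6, a kinase that opens the G1 phase, read 5.81, 5.54 and 5.74 on mock, 6.34, 6.16 and 6.30 on negative control and 6.99, 6.68 and 6.78 on mimic arrays, so that its 3 groups were fully separated. It rose by 0.55 ± 0.11 against the negative control (adjusted p = 0.027, up to 0.097 and lost without any negative control array, mimic 1 or mimic 3) and by 1.12 ± 0.11 against mock (adjusted p = 0.0011).

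CDC34, a ubiquitin-conjugating enzyme of the cell cycle, rose by 0.49 ± 0.092 and 0.51 ± 0.092 against negative control and mock (adjusted p = 0.023 and 0.018). Its call against the negative control was lost without negative control 1 or 3 or any mimic array (adjusted p up to 0.085). Its call against mock was lost without mock 1 or 2 or any mimic array (adjusted p up to 0.076). CDC25A, a phosphatase that activates cyclin-dependent kinases, rose against mock by 0.72 ± 0.16 (adjusted p = 0.045, up to 0.15 and lost when any array was left out except mock 3 and mimic 3). IGF2BP3, an oncofetal RNA-binding protein, rose against mock by 0.48 ± 0.11 (adjusted p = 0.047, up to 0.16 and lost when any array was left out except mock 3). Against the negative control CDC25A was at 0.22 ± 0.16 and IGF2BP3 at 0.13 ± 0.11, and neither passed. IGF2BP3 also missed against mock when quantile-normalized once more (adjusted p = 0.066).

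The let-7 target that fell was THBS1, which encodes the matrix protein thrombospondin. Its signal was 7.72 to 8.0 in mock, 8.03 to 8.30 in negative control and 6.79 to 7.07 in mimic, with no overlap between mimic and the rest. THBS1 was at -1.23 ± 0.12 against the negative control (adjusted p = 0.0011) and at -0.995 ± 0.12 against mock (adjusted p = 0.0027). MYC, the growth-promoting transcription factor, was at 0.45 ± 0.17 against the negative control (adjusted p = 0.24).

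**Figure D3:**
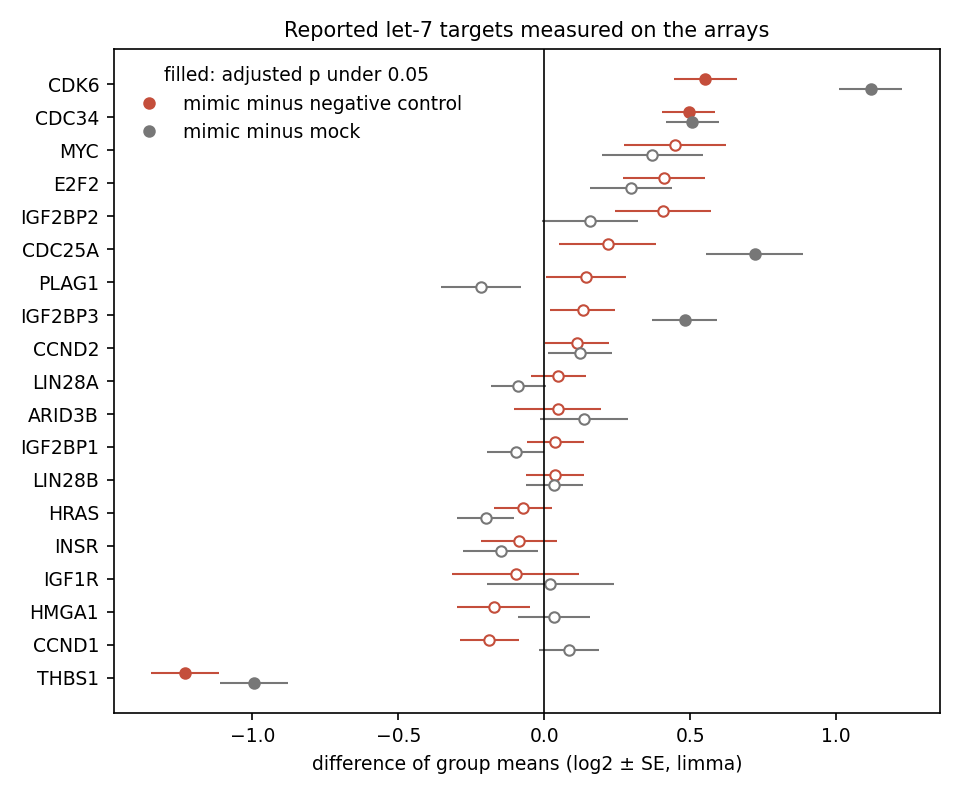
Difference of group means (log2 ± SE, n = 3 arrays per group) for the 19 measured let-7 targets, mimic minus negative control in red and mimic minus mock in grey, with filled points where the adjusted p was under 0.05. CDK6 and CDC34 are filled to the right of 0 in both comparisons and THBS1 to the left in both, while most other points are open.

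The genes that set let-7 levels were partly measured. LIN28A and LIN28B, which block let-7 maturation, both lay below the median signal, with group means of 2.08 to 2.22 and 1.82 to 1.85. Their differences were 0.048 ± 0.094 and 0.037 ± 0.099 against the negative control, and neither passed. Of 6 measured genes of let-7 maturation (14 listed), 1 rose (all genes: 1.76%), 0 fell (all genes: 1.42%) and 5 did not pass against the negative control. The median of the 6 was 0.060. The gene that rose was DGCR8, the RNA-binding partner of Drosha, at 0.54 ± 0.11 (adjusted p = 0.028, up to 0.097 and lost without mock 1, any negative control array, or mimic 1 or 2). Against mock 0 of the 6 passed with limma (all genes: 3.9%), with a median of 0.11 and DGCR8 at 0.32 ± 0.11 (adjusted p = 0.14). XPO5, which exports microRNA precursors from the nucleus, was at 0.32 ± 0.14 against the negative control and TARBP2, a Dicer partner, at 0.072 ± 0.086.

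Features named for let-7 loci report on the locus and do not give the level of the mature microRNA. Of 14 measured loci and host genes, MIR150 included, 1 rose (all genes: 1.76%), 0 fell (all genes: 1.42%) and 13 did not pass against the negative control. The median of the 14 was 0.17. Against mock 0 passed with limma (all genes: 3.9%), with a median of 0.099. The one that rose was MIRLET7A2, one of the genes of the let-7a-5p sequence shown above. It read 3.19, 3.09 and 3.04 on mock, 2.96, 2.66 and 3.06 on negative control and 3.62, 4.21 and 3.60 on mimic arrays. MIRLET7A2 was thus highest on mimic 2, as were HMGA2 and PLAGL2, and its mimic arrays lay above all others. It rose by 0.91 ± 0.17 against the negative control (adjusted p = 0.020, up to 0.058 and lost without negative control 1 or 2). Against mock it was at 0.70 ± 0.17 (adjusted p = 0.051, which became 0.045 quantile-normalized once more, 0.041 centred on array medians, 0.042 with array weights, 0.037 with genes under the 25 percentile of signal left out and 0.046 without negative control 2). Its mean signal (3.27) lay below the median of all genes. The other let-7a genes did not pass, MIRLET7A3 being at 0.26 ± 0.15 against the negative control. Of the host genes, MIR99AHG was at 0.45 ± 0.11 (adjusted p = 0.069) and MIR100HG at 0.22 ± 0.10 (adjusted p = 0.35) against the negative control. MIRLET7G was at 0.24 ± 0.12. MIR150 itself was at -0.18 ± 0.20 (adjusted p = 0.73).

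Of 12 other oncofetal genes measured (18 listed), 0 passed against the negative control with limma (all genes: 3.18%), with a median of 0.028. Against mock IGF2BP3 rose (all genes called higher: 2.28%) and the other 11 did not pass, with a median of 0.011. AFP, DLK1, GPC3, SALL4, LIN28B, IGF2BP1 and PLAG1 lay below the median signal of all genes. PEG10, an imprinted gene derived from a retrotransposon, was at -0.68 ± 0.20 against the negative control (adjusted p = 0.11). IGF2BP2, whose transcription HMGA2 is known to support, was at 0.41 ± 0.16 (adjusted p = 0.26) and PRTG at 0.38 ± 0.14 (adjusted p = 0.20).

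Genes reported downstream of HMGA2 included 2 that fell in both comparisons. Of 10 measured (14 listed), 0 rose, 2 fell and 8 did not pass against the negative control and likewise against mock. The share of all genes called lower was 1.42% and 1.62% in these comparisons. The medians of the 10 were 0.0080 and 0.13. SNAI2 and TWIST1, transcription factors that repress epithelial genes and that HMGA2 is reported to raise, both fell. SNAI2 signals were 7.26 to 7.50 in mock, 6.88 to 7.36 in negative control and 5.53 to 5.79 in mimic. SNAI2 was at -1.36 ± 0.14 against the negative control (adjusted p = 0.0018) and -1.71 ± 0.14 against mock (adjusted p = 0.00057). TWIST1 was at -0.61 ± 0.098 against the negative control (adjusted p = 0.011, up to 0.054 and lost without mimic 1 or 3) and at -0.78 ± 0.098 against mock (adjusted p = 0.0038). E2F1, which HMGA2 is reported to activate, was at 0.46 ± 0.14 against the negative control (adjusted p = 0.13) and at 0.39 ± 0.14 against mock (adjusted p = 0.18).

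Of 6 measured genes linked to PLAGL2 (10 listed), 0 passed in any comparison with limma. The share of all genes called was 3.18% against the negative control, 3.9% against mock and 0.645% in negative control against mock. Of these 6, 4 lay below the median signal of all genes. The medians of the 6 were -0.18 against the negative control and 0.040 against mock. Against the negative control 6 lay below 0, and against mock 4 lay above 0 and 2 below. In negative control against mock 6 lay above 0. Over all genes 48.7%, 50.2% and 52.2% lay above 0 in these comparisons. BNIP3, a mitochondrial death factor that PLAGL2 is reported to induce, was at -0.19 ± 0.18 against the negative control. SFTPC, a lung surfactant gene used as a PLAGL2 reporter target, was at -0.18 ± 0.076, and the Wnt receptor genes FZD2 and FZD9 were at -0.18 ± 0.19 and -0.18 ± 0.16.

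The other reported targets of miR-150 included 2 that fell. Of 10 measured (15 listed), 0 rose, 2 fell and 8 did not pass against the negative control, and the same counts held against mock. Among all genes 1.42% and 1.62% were called lower in these comparisons. The medians of the 10 were -0.084 and -0.074. The members that fell were MMP14, a membrane-bound protease of the matrix, and ZEB1, a repressor of epithelial genes. MMP14 was at -0.69 ± 0.11 against the negative control (adjusted p = 0.013, 0.054 and lost without mimic 1) and at -0.84 ± 0.11 against mock (adjusted p = 0.0052). ZEB1 was at -0.36 ± 0.076 (adjusted p = 0.036, up to 0.11 and lost when any array was left out except negative control 2) and at -0.58 ± 0.076 against mock (adjusted p = 0.0043). FOXO4 was at -0.25 ± 0.16 and CXCR4 at -0.22 ± 0.11, and neither passed.

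The genes on either side of both members on the chromosome were compared. The nearest 3 measured genes on either side were taken by their order in the RefSeq gene table (GRCh38.p14). Of the 6 around HMGA2, 0 passed in any comparison with limma. RPSAP52, a transcribed pseudogene that overlaps one end of HMGA2 in that table, was at 0.33 ± 0.27 against the negative control and 0.27 ± 0.27 against mock, on a signal below the median of all genes. HMGA2 and RPSAP52 were read by separate features, and the labels do not state whether these tell the strands apart. Whether the overlapping part added to both signals was not tested. TMBIM4, MSRB3, LEMD3, IRAK3 and HELB were between -0.27 and 0.14 against the negative control.

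PLAGL2 lies head to head with POFUT1, which encodes the enzyme that adds fucose to Notch receptors, and their annotated starts are 137 bases apart. The 136 bases between those starts are shown because they lie upstream of both genes. Whether either gene uses an element there was not tested. They lie at chr20:32207744-32207879 (GRCh38.p14, RefSeq) and are read here on the minus strand, the strand of PLAGL2. The first letter is thus next to the POFUT1 start and the last next to the PLAGL2 start, with GC-box letters in capitals:
PLAGL2 to POFUT1: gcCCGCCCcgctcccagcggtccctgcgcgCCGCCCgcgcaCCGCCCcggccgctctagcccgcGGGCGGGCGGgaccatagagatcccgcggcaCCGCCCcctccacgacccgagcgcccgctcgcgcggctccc
The motif searched was GGGCGG on both strands (CCGCCC on the strand shown when the match is on the other), with overlapping matches counted. There were 6 matches, 2 of which overlap each other. The same motif occurs in 35.6% of the 35116 promoter windows of the same length and position in the table. The stretch is 83.8% G or C, against a median of 60.3% in those windows. A match is a description of letters only.

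POFUT1 did not pass in any comparison. It read 6.46, 6.54 and 6.91 on mock, 6.64, 6.95 and 6.71 on negative control and 6.99, 7.08 and 6.92 on mimic arrays. Mock 3 was the highest mock array for POFUT1 too, as for PDRG1, TM9SF4, KIF3B and ASXL1 but not CCM2L. The margin was small in some of them. KIF3B read 6.55, 6.35 and 6.56 on mock 1 to 3 and ASXL1 7.29, 7.09 and 7.42, beside 4.66, 4.70 and 5.50 for PLAGL2. The share of all genes with mock 3 highest was not counted, so this order is no result about the neighbours. POFUT1 was at 0.23 ± 0.13 against the negative control (adjusted p = 0.45) and 0.36 ± 0.13 against mock (adjusted p = 0.18), beside 0.65 and 1.14 for PLAGL2. Whether the difference between the neighbours exceeds their error was not tested.

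Of the other 5 neighbours of PLAGL2, 0 passed against the negative control with limma (all genes: 3.18%, and 3.9% against mock). Against mock 1 fell, ASXL1, a Polycomb-associated chromatin regulator, at -0.53 ± 0.12 (adjusted p = 0.040, up to 0.13 and lost when any array was left out except mock 2 and negative control 2). PDRG1 was at 0.75 ± 0.19 against mock (adjusted p = 0.066) and TM9SF4 at 0.47 ± 0.16 (adjusted p = 0.15). Also against mock, CCM2L and KIF3B were at -0.15 ± 0.13 and 0.17 ± 0.14.

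**Figure D4:**
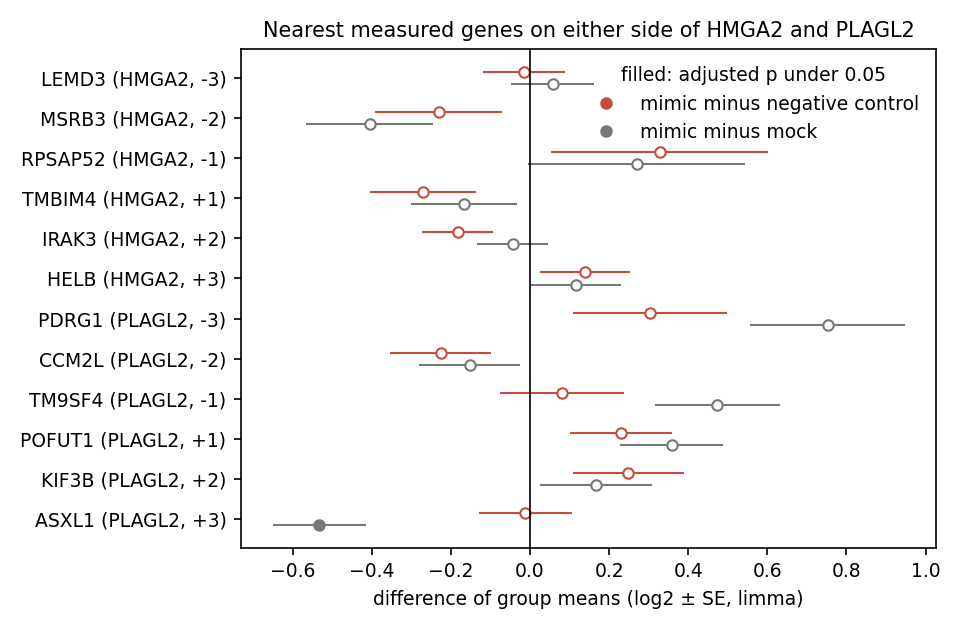
Difference of group means (log2 ± SE, n = 3 arrays per group) for the 3 nearest measured genes on each side of HMGA2 and PLAGL2, mimic minus negative control in red and mimic minus mock in grey, with filled points where the adjusted p was under 0.05. The sign and number after each member's name give the side and the order of distance. Only ASXL1 against mock is filled, and POFUT1 lies at 0.23 and 0.36.

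The comparison of negative control with mock addresses the effect of a non-specific small RNA added to the reagent. Of the 78 measured genes of the lists, 0 passed in it with limma. CDK6 came closest, at 0.57 ± 0.11 (adjusted p = 0.058). With the replicate number as a block, since numbers may pair these groups, CDK6 passed (adjusted p = 0.047). CDK6 also passed quantile-normalized once more (0.045) and with genes under the median signal left out (0.038). The count over all genes fell from 96 to 61 with the block, and to 0 with the block on these 6 arrays alone (CDK6 at an adjusted p of 0.12). For CDK6, as for HMGA2 and PLAGL2, the negative control mean lay between those of mock and mimic. Over the same lists 10 genes passed in mimic against negative control and 10 in mimic against mock, 5 higher and 5 lower in each. Over all genes 3.18% and 3.9% passed in these comparisons, and 0.645% in negative control against mock. The lists were chosen with earlier results of these data known, so their counts are a description.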

How the data were processed

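RNA from 9 samples was read on Affymetrix Human Gene 2.0 ST arrays. The deposited values are log2 signals that the authors made with RMA, per the submitters' processing notes. No RMA version is stated in those notes. The table held 53617 features with 0 missing values. Platform annotation gave 16098 features 1 symbol and 37519 none. All 16098 gene IDs matched a RefSeq table (GRCh38.p14). The brightest feature stood for each of 14884 genes, with no signal filter. Genes were tested with limma 3.58.1 (R 4.3.3; lmFit, eBayes) on all 9 arrays, two-sided, with Benjamini-Hochberg adjustment over all genes and a threshold of 0.05. The pipeline was tested on simulated data. The number of arrays limits the precision.

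The genes, lists, comparisons and alternatives were chosen with earlier results of these data known. Named genes were both genes of interest, each list's called members and its 4 largest differences against the negative control, the 5 genes most like each by Pearson's r (without microRNA, small nucleolar, LOC, LINC, FAM and C-orf names), and 3 measured neighbours a side. Same-numbered mock and negative control arrays deviated together (r = 0.15, 0.23 and 0.15 across genes). Differently numbered arrays of these groups had r from -0.16 to 0.022, and mimic arrays had r from -0.29 to -0.054 with their numbers. Yet differently numbered arrays also reached 0.24 (negative control 2 with mimic 1) and 0.22 (negative control 3 with mimic 2). These r values therefore cannot settle whether numbers pair the mock and negative control groups.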

Additional observations from a re-analysis of the deposited data

How the results depend on the processing

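The differences of HMGA2 and PLAGL2 shifted with the scaling and with the arrays used, and none changed sign. Against the negative control HMGA2 was at 0.93 quantile-normalized once more and 1.03 centred on array medians, beside 1.01. PLAGL2 was at 0.55 and 0.67 in these settings, beside 0.65. The mean of features and the replicate block could not move the differences of either gene, since each has 1 feature and the groups are balanced over the numbers. Leaving out 1 array gave 1.09 to 1.36 for HMGA2 and 1.00 to 1.41 for PLAGL2 against mock, 0.85 to 1.12 and 0.53 to 0.73 against the negative control, and 0.16 to 0.37 and 0.34 to 0.76 for negative control against mock. Using every other feature of a gene could not be run, since each has 1.

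Counts of called genes moved more. Without 1 array, counts that moved by over 1.5 times were as follows. Mimic against negative control gave 314 (mock 1 left out), 263 and 221 (negative control 1 and 3) and 206, 234 and 199 (mimic 1, 2 and 3). Mimic against mock gave 219 and 376 (mock 1 and 2 left out) and 188, 299 and 263 (mimic 1, 2 and 3). Negative control against mock gave 21 (mock 1 left out), 51 (mock 3), 52, 46 and 42 (negative control 1, 2 and 3) and 57 (mimic 3). For mimic against negative control (473) the count was 292 with the replicate block, 251 on the 6 arrays compared and 140 at an adjusted p under 0.01, and 199 to 431 with 1 array left out. For mimic against mock (580) it was 346, 321 and 144, 904 with array weights, 362 at 1.5-fold, and 188 to 650. For negative control against mock (96) it was 61, 18 and 20, 150 at or above the median signal, 28 without mock 2 and negative control 2, 0 with the block on those arrays alone, and 21 to 112; the last pair of settings was chosen after seeing the data. Of list genes, the 10 called against the negative control became 5 with the block, 5 on the 6 arrays, 2 at 0.01, 5 at 1.5-fold, 6 without mock 2 and negative control 2, and 4 to 10. The 10 against mock became 6 at 0.01 and 6 to 10. The 0 in negative control against mock became 1 (CDK6) quantile-normalized once more, with the block and at or above the median signal, and stayed at 0 to 0 with 1 array left out. Same-numbered mimic and control arrays did not deviate together. With the block, the calls of CDC34, DGCR8, HMGN2, MIRLET7A2 and ZEB1 against the negative control (adjusted p 0.055 to 0.083) and of CDC25A, HMGB1 and IGF2BP3 against mock (0.076 to 0.089) were lost. With a mean-variance trend and robust variance, those of HMGN2 and ZEB1 (0.052 and 0.068) and of HMGB1 and IGF2BP3 (0.052 and 0.063) were lost. On the 6 arrays compared, those of CDK6, DGCR8, HMGN2, MIRLET7A2 and ZEB1 against the negative control (0.050 to 0.086) and of ASXL1, CDC25A, HMGB1 and IGF2BP3 against mock (0.063 to 0.11) were lost. Without mock 2 and negative control 2, CDK6, DGCR8, HMGN2, MIRLET7A2 and ZEB1 (0.051 to 0.084) and CDC25A, HMGB1 and IGF2BP3 (0.12 to 0.13) were lost in the same comparisons. Lower counts on 6 arrays follow from fewer samples; otherwise the cause was not tested.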
